A study of Arabidopsis thaliana with 20 samples.

Results

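Hairpin siRNAs of 23 nt were described on each strand of an EIN2 hairpin stem in 15 small RNA libraries of Arabidopsis thaliana. They were taken as every read listed at 23 nt by the submitters: antisense reads on the unaltered stem sequence, and sense reads on the stem that the plant's own hairpin carries. This gave 228286 reads, 119280 antisense and 109006 sense, of 3748603 reads between 18 and 25 nt, or 6.09%. The length class was chosen by its share of antisense siRNAs, which had been seen to be larger with the G:U hairpin than with the WT hairpin, and the stem for each strand was chosen by where the reads lay. Values that compare the hairpins at 23 nt are therefore given as a description, with no test.

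The series set hairpin RNAs of different stem structure side by side for the small RNAs made from them. The hairpin against EIN2, a membrane protein needed for ethylene signalling, was either perfectly paired (hpEIN2[WT], 7 libraries) or had wobble pairs in its stem (hpEIN2[G:U], 8 libraries). All plants were of ecotype Columbia, were sampled whole at 3 weeks of age, and carried 1 of these transgenes, and no library without a hairpin was used. Non-mutant plants appear in both deposited tables: 4 libraries in the first (WT 15, WT 17, G:U 12 and G:U 13), called Columbia below, and 3 in the second (WT 15, G:U 12 and G:U 13), called Col-0. The other libraries of the second table came from the nrpd1a mutant (WT 2, WT 3, G:U 2 and G:U 18) and from the ocp11 mutant (WT 10, WT 11, G:U 4 and G:U 6). NRPD1a is the largest subunit of RNA polymerase IV, whose transcripts are the source of heterochromatic 24-nt siRNAs. The gene affected in ocp11 is ARGONAUTE4, an effector that loads siRNAs of that kind. The labels do not give the promoter of the hairpin, the number of plants behind a library, or whether a number marks a transgenic line. The genotype label of both ocp11 G:U samples names the WT hairpin, and their titles, followed here, name G:U. The target gene label of 3 first-table samples names a gene other than EIN2, and their titles name the EIN2 hairpin.

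Dicer-like enzymes cut the double-stranded stem into short duplexes with 1 strand of each polarity. In Arabidopsis DCL4 makes 21-nt, DCL2 22-nt and DCL3 24-nt siRNAs. A length of 23 nt is the main product of none of them, although purified DCL3 is known to release 23-nt as well as 24-nt strands from short precursors. The antisense strand is the one that can pair with EIN2 mRNA and guide its silencing. The tables list reads by length and strand with no read sequences, so neither the sequences of the 23-nt reads nor how many distinct ones they comprise can be given, and no sequence is printed.

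The raw 23-nt counts ran from 116 to 54268 antisense reads and from 79 to 40610 sense reads per library. The fewest were in nrpd1a WT library 3 and the most in ocp11 G:U library 6. The tables give no library totals, so the amount of 23-nt siRNA was not compared between libraries, and each result is a ratio of reads within 1 library. The widest 95% interval of a log2 ratio, in nrpd1a WT library 3, reached 0.41 to either side, which is more than several of the differences described. In ocp11 G:U library 6 no ratio's interval reached beyond 0.031. Intervals cover counting error only, since reads amplified by PCR are not independent molecules.

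Antisense siRNAs of 23 nt ranked higher among the lengths in most G:U libraries than in WT libraries. In the 7 WT libraries this length was the rarest of the 5 lengths from 20 to 24 nt on the antisense strand in 6 libraries and the fourth in 1, Col-0 library 15. In the G:U libraries it was the second most frequent antisense length in 2, Columbia library 12 and ocp11 library 6, the third in 4 and the fourth in 2, both of Col-0, the rank it also had in the Col-0 WT library. Among sense siRNAs 23 nt was the rarest of the 5 lengths in all 15 libraries. The rank of 23 nt thus varied between libraries on the antisense strand and not on the sense strand.

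The strand ratio at 23 nt, antisense reads per sense read, did not separate the hairpins outside Col-0. In the first table it was 0.803 in WT library 15 and 0.645 in WT library 17, while G:U libraries 12 and 13 had 1.13 and 0.546. In nrpd1a it was 1.18 and 1.47 in WT libraries 2 and 3 and 1.32 and 1.55 in G:U libraries 2 and 18. In ocp11 it was 0.879 and 0.824 in WT libraries 10 and 11 and 0.528 and 1.34 in G:U libraries 4 and 6. WT and G:U values overlapped in the first table and in both mutants. In Col-0 they were far apart, at 3.56 in the single WT library (antisense 78.1% of 23-nt reads, 95% Wilson interval 77.6% to 78.6%) and at 0.619 and 0.501 in G:U libraries 12 and 13.

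At the other lengths the G:U hairpin gave far fewer antisense than sense reads. Across the 8 G:U libraries the strand ratio ran from 0.132 to 0.339 at 20 nt, from 0.148 to 0.342 at 21 nt, from 0.136 to 0.342 at 22 nt and from 0.0900 to 0.260 at 24 nt. At 23 nt it ran from 0.501 to 1.55, with a median of 0.874. The lowest value at 23 nt lay above the highest at any other length. In each of the 8 libraries 23 nt had the highest strand ratio of the 5 lengths, by 1.81 to 6.21 times over the next length, while this held in 2 of the 7 WT libraries (nrpd1a library 3 and Col-0 library 15). The 7 WT libraries had a median strand ratio of 0.879 at 23 nt, beside 0.840 at 20 nt, 1.23 at 21 nt, 0.645 at 22 nt and 0.701 at 24 nt.

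Put as a comparison of hairpins, the strand ratio was lower with G:U at every length other than 23 nt in each of the 4 sets of matched libraries (first-table Columbia, Col-0, nrpd1a and ocp11). On the log2 scale the mean difference, G:U minus WT, was -2.20 ± 0.38 at 20 nt, -2.65 ± 0.48 at 21 nt, -1.80 ± 0.62 at 22 nt and -2.60 ± 1.27 at 24 nt (SD over the 4 sets). At 23 nt it was 0.13 in first-table Columbia, 0.12 in nrpd1a and -0.020 in ocp11, each smaller than the pooled SD of 0.48 between libraries of a group. In Col-0 it was -2.68. The mean of the 4 sets, -0.61 ± 1.38 (SD), rests on Col-0 and was 0.075 without it.

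With 23-nt reads included, antisense reads remained the minority with the G:U hairpin. Over the other 4 lengths together, antisense reads made up 12.5% to 20.7% in the G:U libraries, and with 23 nt included 13.6% to 22.9%. For WT libraries the same shares were 42.0% to 65.9% and 41.9% to 66.8%.

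Among antisense siRNAs, 23-nt reads were more frequent relative to 24-nt reads with the G:U hairpin. The antisense 23-to-24-nt ratio was 0.652 and 0.554 in first-table WT libraries 15 and 17, against 2.38 and 0.929 in G:U libraries 12 and 13. It was 0.344 in Col-0 WT library 15, against 0.851 and 0.997 in G:U libraries 12 and 13. The G:U libraries lay above the WT libraries in both sets, and G:U library 12 of the first table was the highest of all.

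In nrpd1a this ratio was 0.197 and 0.179 in WT libraries 2 and 3, against 0.843 and 0.982 in G:U libraries 2 and 18. In ocp11 it was 0.276 and 0.242 in WT libraries 10 and 11, against 0.481 and 1.25 in G:U libraries 4 and 6. The hairpins did not overlap within any of the 4 sets. Over all sets 7 of 8 G:U libraries lay above every WT library, the exception being ocp11 G:U library 4. On the log2 scale the difference was 1.65 ± 0.43 (mean and SD over the 4 sets), a 3.13-fold higher ratio, against a pooled SD of 0.53 between libraries of a group. By set it was 1.31 (first-table Columbia), 1.42 (Col-0), 2.28 (nrpd1a) and 1.58 (ocp11).

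Against 22 nt the separation was complete. The antisense 23-to-22-nt ratio ran from 0.346 to 0.895 in the 7 WT libraries and from 1.09 to 5.50 in the 8 G:U libraries. Antisense 23-nt reads therefore outnumbered 22-nt reads in 8 of 8 G:U and in 0 of 7 WT libraries. First-table WT libraries 15 and 17 had ratios of 0.443 and 0.606 and G:U libraries 12 and 13 had 2.49 and 1.60. In Col-0 the gap was narrow, at 0.895 in the WT library and 1.15 and 1.09 in G:U libraries 12 and 13.

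In nrpd1a the antisense 23-to-22-nt ratio was 0.396 and 0.346 in WT libraries 2 and 3 and 1.69 and 1.62 in G:U libraries 2 and 18. In ocp11 it was 0.612 and 0.754 in WT libraries 10 and 11 and 1.35 and 5.50 in G:U libraries 4 and 6. The difference was 1.61 ± 0.86 on the log2 scale (mean and SD over the 4 sets), with a pooled SD of 0.59 between libraries of a group. By set it was 1.95 (first-table Columbia), 0.32 (Col-0), 2.16 (nrpd1a) and 2.00 (ocp11), so Col-0 lay apart from the other sets and below that SD.

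Sense siRNAs of 23 nt differed less between the hairpins. Their share of sense siRNAs of 20 to 24 nt was 4.05% with either hairpin, averaged over the 4 sets, with a difference of 0.00318 percentage points and an SD of 0.713 over the sets. The difference, G:U minus WT, was 0.992 points in nrpd1a and -0.711 points in first-table Columbia. The same difference for antisense siRNAs was 10.3 ± 5.39 percentage points (SD over the 4 sets), from 4.77% with WT to 15.0% with G:U. It was 13.5 in first-table Columbia, 12.4 in nrpd1a and 12.9 in ocp11, and 2.22 in Col-0.

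The sense 23-to-24-nt ratio was lower with G:U in first-table Columbia and in Col-0, where the hairpins did not overlap, and overlapped between them in both mutants. It was 0.567 and 0.413 in first-table WT libraries 15 and 17, the highest of the 15, and 0.239 and 0.231 in G:U libraries 12 and 13. In Col-0 it was 0.211 in the WT library and 0.154 and 0.179 in G:U libraries 12 and 13. The mutants showed smaller gaps, with 0.129 and 0.119 (WT) and 0.115 and 0.121 (G:U) in nrpd1a, and 0.221 and 0.194 (WT) and 0.237 and 0.206 (G:U) in ocp11. The mean difference was -0.34 ± 0.50 on the log2 scale (SD over the 4 sets), and it was -1.04 in first-table Columbia and 0.095 in ocp11.

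Sense 23-nt reads were fewer than 22-nt reads in all 15 libraries. The sense 23-to-22-nt ratio was 0.304 and 0.465 in first-table WT libraries 15 and 17 and 0.401 and 0.398 in G:U libraries 12 and 13. It was 0.366 in the Col-0 WT library and 0.524 and 0.549 in Col-0 G:U libraries 12 and 13. In nrpd1a it was 0.213 and 0.152 (WT) and 0.393 and 0.358 (G:U), and in ocp11 0.478 and 0.635 (WT) and 0.522 and 0.578 (G:U). G:U lay above WT in Col-0 and nrpd1a, and the hairpins overlapped in the other sets. The mean difference was 0.42 ± 0.49 on the log2 scale (SD over the 4 sets).

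Both strands of 1 library can be set against each other, which leaves out differences between libraries that act alike on both strands. The antisense 23-to-24-nt ratio was 1.15 to 1.63 times the sense ratio in the 7 WT libraries and 2.03 to 9.93 times in the 8 G:U libraries, with medians of 1.34 and 5.82. For the 23-to-22-nt ratio the factor was 1.19 to 2.45 in WT and 1.99 to 9.51 in G:U libraries, with medians of 1.46 and 4.16. The first of these did not overlap between the hairpins, and in the second 6 of 8 G:U libraries lay above every WT library, the exceptions being Col-0 libraries 12 and 13.

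The G:U libraries of ocp11 and of first-table Columbia differed widely within their groups, and did so on the antisense strand, whereas WT libraries of 1 group differed by at most 1.53 times in any of the 5 ratios. The share of 23 nt among antisense siRNAs did vary within WT groups, at 1.54% and 4.61% in first-table libraries 15 and 17, 2.08% and 1.85% in nrpd1a libraries 2 and 3, and 4.21% and 5.17% in ocp11 libraries 10 and 11. In ocp11 G:U the antisense 23-to-22-nt ratio of library 6 was 4.07 times that of library 4, and the antisense 23-to-24-nt ratio 2.60 times, while the sense ratios differed by 1.11 and 1.15 times. In first-table G:U the antisense 23-to-24-nt ratio of library 12 was 2.56 times that of library 13, and the sense ratio 1.04 times. The G:U libraries of nrpd1a and of Col-0 differed by no more than 1.23 times in any of the 5 ratios. In the G:U groups this share was 26.3% and 8.94% in ocp11 G:U libraries 6 and 4, 20.6% and 12.5% in first-table G:U libraries 12 and 13, 14.5% and 14.3% in nrpd1a, and 11.2% and 11.9% in Col-0. Without first-table G:U library 12 and ocp11 G:U library 6, left out together after their values were seen, the hairpin difference in the antisense share was 7.09 percentage points, and those in the antisense 23-to-24-nt and 23-to-22-nt ratios were 1.31 and 1.28 on the log2 scale.

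The mutants allow the 23-nt ratios to be compared between backgrounds, and this comparison was not used to choose the class. Since amounts were not compared, it cannot show whether 23-nt hairpin siRNAs depend on RNA polymerase IV or ARGONAUTE4. The comparison was made within the second table, averaging the log2 differences of both hairpins. When the mutants were pooled and set against Col-0, none of the 5 ratios passed the threshold of 0.05 (exact stratified permutation test, two-sided, lowest adjusted p = 0.92, 0 of 5 with an unadjusted p under 0.05, smallest possible p 0.0133). The differences, mutants minus Col-0, were -0.39 for the strand ratio at 23 nt (exact permutation p = 0.56), -0.39 for the antisense 23-to-24-nt ratio (exact permutation p = 0.227) and 0.044 for the antisense 23-to-22-nt ratio (exact permutation p = 0.92). For the sense 23-to-24-nt and 23-to-22-nt ratios they were -0.22 and -0.23 (exact permutation p = 0.533 and 0.827). Neither mutant was tested against Col-0 alone, and pooling averaged mutants that differed in these sense ratios. The sense 23-to-24-nt ratio was 0.115 to 0.129 in nrpd1a, 0.154 to 0.211 in Col-0 and 0.194 to 0.237 in ocp11. Within each hairpin the sense 23-to-22-nt ratio of nrpd1a lay below Col-0, while ocp11 lay above with WT and overlapped with G:U. Benjamini-Hochberg adjustment was over the 5 ratios of a contrast, and a p that misses the threshold does not show that the backgrounds were alike.

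Relative to Col-0 the strand ratio of the mutants was lower with the WT and higher with the G:U hairpin. With WT the 4 mutant libraries lay between 0.824 and 1.47, all below the 3.56 of the Col-0 library, a log2 difference of -1.75. This rests on that 1 library, since the first-table WT libraries, at 0.803 and 0.645, lay below all 4 mutant libraries. With G:U the mean difference was 0.98, and 3 of 4 mutant libraries lay above both Col-0 libraries. The exception was ocp11 library 4, at 0.528, between the Col-0 values of 0.501 and 0.619. First-table G:U libraries 12 and 13, at 1.13 and 0.546, lay within the range of the G:U mutant libraries, 0.528 to 1.55.

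Between the mutants both sense 23-nt ratios were lower in every nrpd1a library than in any ocp11 library. The sense 23-to-24-nt ratio was 0.115 to 0.129 in the 4 nrpd1a libraries and 0.194 to 0.237 in the 4 ocp11 libraries, a log2 difference of -0.82. The sense 23-to-22-nt ratio was 0.152 to 0.393 and 0.478 to 0.635, a log2 difference of -1.08. Each had an exact permutation p of 0.0556, the smallest that this design can give, and an adjusted p of 0.139, so neither could pass the threshold. The strand ratio at 23 nt was 1.18 to 1.55 in nrpd1a and 0.528 to 1.34 in ocp11 (log2 difference 0.70, exact permutation p = 0.111, adjusted p = 0.185). The antisense 23-to-24-nt and 23-to-22-nt ratios differed by -0.12 and -0.80 (exact permutation p = 0.833 and 0.167, adjusted p = 0.833 and 0.208). With the WT hairpin both antisense ratios were also lower in each nrpd1a library than in each ocp11 library, and with G:U the mutants overlapped. If library numbers mark transgenic lines, mutant and line cannot be told apart.

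Of the Columbia libraries with the same number in both tables, WT 15 and G:U 12 were not alike at 23 nt. G:U 13 was closer in its strand ratio and antisense 23-to-24-nt ratio. WT library 15 had a strand ratio of 0.803 in the first and 3.56 in the second table, and 23 nt made up 1.54% and 9.34% of its antisense siRNAs. For G:U library 12 the antisense 23-to-24-nt ratio was 2.38 in the first and 0.851 in the second table. For G:U library 13 it was 0.929 and 0.997, and its strand ratio was 0.546 and 0.501. The sense 23-to-24-nt ratio was lower in the second table at all 3 numbers, by 1.29 to 2.69 times. With the first table's Columbia libraries as controls in place of Col-0, both 23-to-24-nt ratios fell in the mutants, by 1.14 (antisense) and 1.07 (sense) on the log2 scale (exact permutation p = 0.0133, adjusted p = 0.0333 for each), but there table and background cannot be told apart.

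Few 23-nt reads of G:U libraries lay on the stem outside the rule, which had itself been set by where the reads lay. Sense 23-nt reads on the unaltered stem numbered 2 to 110 per library, 0.0123% to 1.26% of sense 23-nt reads with a median of 0.557%, beside a median of 0.555% over 20 to 24 nt. Antisense 23-nt reads on the altered stem numbered 1 to 179 per library, with a median of only 3. They were 0.0408% to 0.462% of antisense 23-nt reads with a median of 0.0937%, beside a median of 0.319% over 20 to 24 nt. This share was lower at 23 nt than over 20 to 24 nt in each of the 8 libraries.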

How the data were processed

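Total RNA of whole plants was made into standard Illumina small RNA libraries, per the labels' protocols. Each deposited value is a raw count of reads for 1 strand, length and stem, per the file headers. The tools cutadapt and Bowtie 1.0 and the build TAIR10 are named by the submitters' processing notes. The sources used here do not give the mismatches allowed, the filters or how reads matching both stems were handled, and any rule that assigned reads unequally to the stems would shift the strand ratios. The labels name 20 samples; the 5 GUS hairpin samples were not analysed here.

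Here groups were taken from titles. The nrpd1a WT library titled 3 is numbered 13 in its table and was matched as the remaining library of its group. The 4 entries per second-table library, headed replicate, were taken to be runs of 1 library and summed. That they are runs was inferred from their similar counts. In a chi-square test of the run counts over classes with at least 20 reads, the lowest adjusted p was 0.111 in 11 libraries. Over 22 to 24 nt alone the runs of the deepest library, in ocp11 with the G:U hairpin, differed beyond counting noise (chi-square test, adjusted p = 0.000899). Its ratios varied by at most 1.07 times between runs. Whether libraries came from separate plants is not in the labels, so each p-value reflects only how these libraries vary, which may be technical.

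The 5 ratios (strand ratio at 23 nt, and 23-to-24-nt and 23-to-22-nt on each strand) were computed per library on the log2 scale with no pseudocount. Hairpins were compared as the mean over 4 sets of the difference in group means, untested. Backgrounds were compared by exact permutation within hairpins (Python 3.11.15, numpy 2.4.6, scipy 1.17.1). The test was tried on simulated antisense 23-to-24-nt ratios, for both mutants against Col-0 only. The simulated spread between libraries was smaller than the pooled SD found here. The files hold no genes. By rule the 23-nt class and its 22-nt and 24-nt neighbours are given per library, and 20 nt and 21 nt as ranges. The class and comparisons were chosen with earlier results of these data known. Alternatives changed the stems counted, the scale, the runs, the control libraries, the strata and the length range, and left out each library.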

Additional observations from a re-analysis of the deposited data

Results flagged for a closer look

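The mean difference of the mutants from Col-0 in the 23-nt strand ratio had opposite signs with the WT and the G:U hairpin. The log2 difference was -1.75 with the WT hairpin and 0.98 with the G:U hairpin, so that these differences were 2.73 apart. This gap is also a comparison of hairpins at 23 nt and was singled out after seeing the data. It is therefore given as a description, with no p-value. It rests on the single Col-0 WT library, at 3.56. The first-table WT libraries, of which 1 has the same number, had strand ratios of 0.803 and 0.645, below all 4 mutant WT libraries. With first-table controls the mutants' difference, averaged over both hairpins, was 0.52. On the log2 scale the mutants averaged 0.084 with WT and 0.13 with G:U, against -0.47 and -0.35 in first-table Columbia. Against those controls the mutants thus averaged higher with either hairpin, though table and background cannot be told apart there. The part of the Col-0 WT library in the gap between hairpins was not tested.

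Reads on the stem outside the rule were the other signal picked out, as data that no comparison used. The most were in ocp11 G:U library 6, the library with the most reads, with 110 sense 23-nt reads on the unaltered stem and 179 antisense 23-nt reads on the altered stem. In Dixon's test no library of the 7 WT or 8 G:U passed the critical value in the 5 log2 ratios or 23-nt shares. The test sets the gap to the nearest library against the range, with both tables and all backgrounds pooled. Differences between these can widen the range, so the test cannot show that no library stood apart. In the Col-0 WT library the gap over the range was 0.518 for the strand ratio and 0.534 for the antisense 23-nt share (critical 0.568). In ocp11 G:U library 6 it was 0.491 for the antisense 23-to-22-nt ratio (critical 0.526).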

How the results depend on the processing

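The differences between hairpins in the antisense 23-to-24-nt and 23-to-22-nt ratios and in the antisense 23-nt share kept their sign under each alternative run. With single libraries left out they ran from 1.48 to 1.82, from 1.36 to 2.04 and from 8.10 to 12.96 percentage points. The strand ratio at 23 nt turned from -0.61 to 0.13 in the first table alone and to 0.075 without the Col-0 set, and ran from -0.78 to 0.075 with single libraries left out, the upper value without the Col-0 WT library. The sense 23-to-24-nt difference was -1.04 in the first table and -0.11 in the second, and the sense 23-to-22-nt difference 0.089 in the first. The sense 23-nt share, near 0, was -0.711 points in the first table, -0.167 without first-table G:U library 12 and ocp11 G:U library 6, and -0.192 to 0.198 with single libraries left out. With first-table Columbia libraries added to the controls or in place of Col-0, the mutants' strand ratio difference was 0.26 or 0.52, and with the latter both 23-to-24-nt differences passed, at -1.14 and -1.07. With the G:U hairpin alone the strand ratio difference was 0.98, and with the WT hairpin alone the antisense 23-to-22-nt difference was -0.84. In the contrast over both hairpins, these 2 differences ran from -0.47 to 0.98 and from -0.18 to 0.92 with single libraries left out. The upper values came without the Col-0 WT library, which leaves the G:U hairpin alone. Between the mutants the antisense 23-to-24-nt difference was 0.23 with G:U alone and -0.46 to 0.23 with single libraries left out. No left-out library brought an adjusted p of the exact test under 0.05. Between the mutants none could, since the smallest possible p was 0.0556. Without the Col-0 WT library only the G:U hairpin remained, and the pooled test could not pass either. Where a value turned, the cause was not tested. No paired analysis was possible because the groups tested share fewer than 2 title numbers. Depth limits nrpd1a WT library 3 most, with 116 antisense and 79 sense 23-nt reads, and its runs differed by up to 1.56 times in a ratio.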
